A study of Mus musculus with 18 samples.

Results

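The response described here is that of AML12 cells, a mouse hepatocyte line, to pemafibrate given for 6 h from T24 to T30, the interval of the study that mimics night. Its members were the 3 libraries of pemafibrate-treated cells and the 3 libraries of vehicle-treated (DMSO) cells of that interval, 6 of the 18 libraries in the series, compared within pairs of the same replicate number. The cells of all 6 groups in the series were put into a common circadian phase before RNA sequencing. The other intervals were a 6 h exposure from T14 to T20, which mimics day, and a 24 h reference exposure from T0 to T24, each with 3 DMSO and 3 pemafibrate libraries. All groups were of this 1 line, which derives from a mouse carrying a transforming growth factor alpha transgene, so each library stands for that line and not for liver. The sources used here do not give the pemafibrate dose or the way the cells were synchronized.

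Pemafibrate is a selective agonist of the nuclear receptor PPARα. On binding a ligand, PPARα pairs with the retinoid X receptor on direct repeats of the sequence AGGTCA and activates genes for the uptake, mitochondrial and peroxisomal oxidation and storage of fatty acids, for ketone synthesis and for the control of lipoprotein lipase. The liver uses this programme chiefly in fasting, and the receptor and many of its targets vary over the day in animals.

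The deposited normalized values of the 6 libraries summed to between 32842215 and 33623568, and the 10 highest genes held 5.12% to 5.64% of each total. Depth in reads is unknown, since the values are scaled. Of 23 hepatocyte markers, 14 had a mean of at least 10, among them Alb (albumin) and the liver transcription factor Hnf4a, whereas Cyp2e1, Cyp3a11, Cps1, Apoa2, Apoc3 and Asgr1 were below 10. Markers of bile duct cells were also present, at 6 of 9, including Krt19, Krt7, Sox9 and Spp1. The summed hepatocyte markers ranged from 86798 to 98109 under DMSO and from 86179 to 97785 under pemafibrate. The summed bile duct markers ranged from 55797 to 78138 and from 55541 to 79239, so that both sums overlapped between treatments. A mean of at least 10 was also reached by 6 of 12 stellate cell or fibroblast markers, with Vim the highest. So did 3 of 8 macrophage markers, 2 of 8 endothelial markers and 2 of 5 fetal liver or hepatoma markers, the last including H19. None of the lymphocyte, adipocyte or neuron markers had a mean of 10. In RNA from a whole culture, fewer cells of a type and less RNA per cell cannot be told apart.

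Replicate number separated the libraries more than treatment did. The first and second principal components held 30.3% and 29.97% of the variance, and 99.2% and 98.7% of each lay between replicate numbers. In the third component, 15.0% of the variation lay between treatments. Nothing in the labels says that replicates were separate cultures, so the p-values below measure only how far these libraries scatter, and that scatter may be technical.

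Few genes passed the paired test in this interval, all of them higher with pemafibrate. Of 13231 genes with a mean normalized signal of at least 10, 5 had an adjusted p under 0.05 in limma, each in the higher direction (0.0378% of the genes tested), and 0 were lower. They included Acot1, Angptl4, Aldh1a1 and Syt7. At an unadjusted p under 0.05 there were 994 genes (7.51%), of which 508 were higher (3.84%) and 486 were lower (3.67%). In 3 of 3 pairs, 1976 genes were higher (14.9%) and 2058 were lower (15.6%). The groups did not overlap for 275 genes in the higher direction (2.08%) and for 282 in the lower (2.13%). The call of 5 genes needed the pairing. Without the replicate block limma called 0 genes, with 123 at an unadjusted p under 0.05. Leaving out replicate 2 left 1 gene called, which was none of the 5. Leaving out replicate 1 gave 7 genes, 4 of them shared with the 5, and leaving out replicate 3 gave 6, of which 3 were shared.

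**Figure D1:**
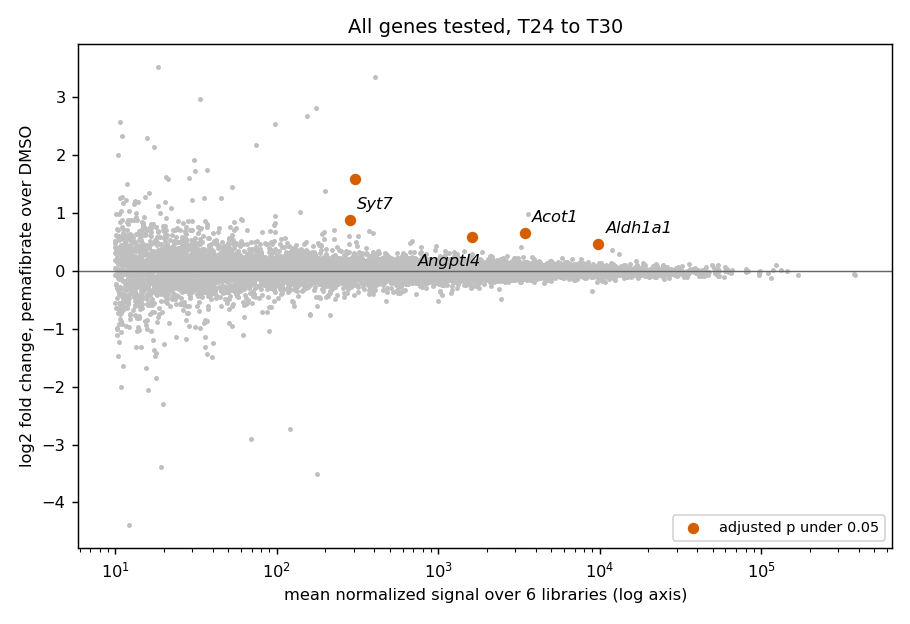
Log2 fold change (pemafibrate over DMSO, vertical axis) against the mean normalized signal over the 6 libraries (horizontal log axis) for the 13231 genes tested, 1 point per gene. The 5 genes with an adjusted p under 0.05, drawn as large points, all lie above 0, and larger differences at low signal were not called.

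Acot1 and Acot2 encode acyl-CoA thioesterases, which release free fatty acids from their CoA esters in the cytosol and in mitochondria. Plin2 coats lipid droplets, and Cpt1a makes the acylcarnitines that carry fatty acids into mitochondria. The 250 bases before the start of these 4 genes are shown to set a called gene and its paralog beside a pair of targets whose groups were separate without a call. The sequences come from RefSeq on GRCm38.p6, matched by symbol, and the sources used here do not name the build behind the expression values. Capitals mark AGGTCA or its reverse complement TGACCT, the half-site of the PPARα response element. The windows are chr12:84009252-84009501 on the plus strand for Acot1, chr12:83987611-83987860 on the plus strand for Acot2, chr4:86670060-86670309 on the minus strand for Plin2 and chr19:3323051-3323300 on the plus strand for Cpt1a.
Acot1: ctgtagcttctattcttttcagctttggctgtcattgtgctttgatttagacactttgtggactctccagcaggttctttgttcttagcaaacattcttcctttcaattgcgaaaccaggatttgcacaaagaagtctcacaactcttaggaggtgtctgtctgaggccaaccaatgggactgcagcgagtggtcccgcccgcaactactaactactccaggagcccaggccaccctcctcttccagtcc
Acot2: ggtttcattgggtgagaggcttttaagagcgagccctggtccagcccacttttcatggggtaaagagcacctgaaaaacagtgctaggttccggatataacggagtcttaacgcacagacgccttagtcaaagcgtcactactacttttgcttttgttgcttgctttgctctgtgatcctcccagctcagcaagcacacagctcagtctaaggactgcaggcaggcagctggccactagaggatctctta
Plin2: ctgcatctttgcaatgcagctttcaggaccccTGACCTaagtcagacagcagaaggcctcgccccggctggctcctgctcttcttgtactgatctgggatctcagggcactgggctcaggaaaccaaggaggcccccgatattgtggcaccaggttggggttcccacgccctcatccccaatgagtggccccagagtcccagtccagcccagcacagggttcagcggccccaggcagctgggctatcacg
Cpt1a: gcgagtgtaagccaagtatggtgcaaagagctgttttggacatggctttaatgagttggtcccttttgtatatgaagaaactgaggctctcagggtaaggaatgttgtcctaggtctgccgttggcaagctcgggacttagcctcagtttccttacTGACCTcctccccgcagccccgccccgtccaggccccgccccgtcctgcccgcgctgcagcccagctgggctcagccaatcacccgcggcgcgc

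The windows of Plin2 and Cpt1a each held 1 half-site, and those of Acot1 and Acot2 held 0. Of the 21 core PPARα targets, 15 had a promoter in the table, in 18 windows of 300 bases (250 before to 50 after the start). Only the 250 bases before the start were searched in each window. A half-site on either strand was present in 6 of the 18 windows (33.33%), compared with 14.02% of all 32851 windows. The direct repeat AGGTCANAGGTCA, which contains the half-site, was found in 0 of the 18 and in 0.03% of all. The clock E-box CACGTG was in 5.56% of the 18 and 6.02% of all. A match describes the letters of a window and is not a binding site.

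Acot1 rose by 1.58-fold. Its normalized signal was 2804, 3098 and 2065 in DMSO replicates 1, 2 and 3, and 4768, 4667 and 3181 in the matching pemafibrate libraries. Every treated library lay above every control, and replicate 3 was the lowest under both treatments. The log2 fold change was 0.66 ± 0.05 (SE, n = 3 pairs) with an adjusted p of 0.0132 by limma. Acot1 and Acot2 are close paralogs, so that the division of reads between them is uncertain.

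Angptl4 rose by 1.503-fold. It encodes a secreted protein that inactivates lipoprotein lipase. Its signal was 1263, 1336 and 1290.3 under DMSO and 1979, 2039 and 1834 under pemafibrate. The groups did not overlap, and this gene varied less between replicates than the other called genes named here. The log2 fold change was 0.59 ± 0.05 (SE, n = 3 pairs), with an adjusted p of 0.0213 by limma.

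Aldh1a1, a retinaldehyde dehydrogenase that makes retinoic acid, rose by 1.38-fold within pairs. The DMSO libraries had 9976, 6436 and 8178, and the pemafibrate libraries had 14206, 9123 and 10748. The groups overlapped, because treated replicate 2 lay below control replicate 1, but the pairwise differences were alike at 0.51, 0.50 and 0.39. The log2 fold change was 0.47 ± 0.04 (SE, n = 3 pairs), with an adjusted p of 0.0184 by limma. The family member Aldh1a7 was at 179.5, 177.5 and 191 under DMSO and at 299, 245 and 266 under pemafibrate. Its groups did not overlap, but it was not called (log2 fold change 0.56, adjusted p = 0.481), and its sequence is close enough to Aldh1a1 that reads may be shared.

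Syt7 encodes a calcium sensor for the fusion of vesicles and lysosomes with the plasma membrane. It rose by 1.85-fold, with signals of 182, 293 and 119.9 under DMSO and 341, 531 and 227 under pemafibrate. The groups overlapped between replicates, but the 3 pairwise log2 differences lay close together at 0.90, 0.86 and 0.91. The adjusted p was 0.0467 by limma for a log2 fold change of 0.89 ± 0.09 (SE, n = 3 pairs). Of the other 15 synaptotagmin and vesicle fusion genes tested, none was called, and 10 of the 16 in all were lower.

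Syt7 lost its call when any 1 replicate was left out (adjusted p from 0.0547 to 0.374) and in the fit of all 18 libraries (adjusted p = 0.351). Of the 3 omissions, only that of replicate 2 ended the calls of Acot1 and Aldh1a1 (adjusted p = 0.106 and 0.237). Angptl4 lost its call without replicate 2 (0.237) and without replicate 3 (0.0532). All 4 also lost it in the fits with no filter on low values, with no variance trend and without the replicate block, which calls 0 genes. Over all alternatives the adjusted p by limma ranged from 7.99e-04 to 1.00 for Acot1, from 8.26e-04 to 1.00 for Aldh1a1, from 8.26e-04 to 0.922 for Angptl4 and from 0.0223 to 1.00 for Syt7. Their log2 fold changes moved little when 1 replicate was left out, with Acot1 between 0.61 and 0.69 and Angptl4 between 0.56 and 0.63.

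**Figure D2:**
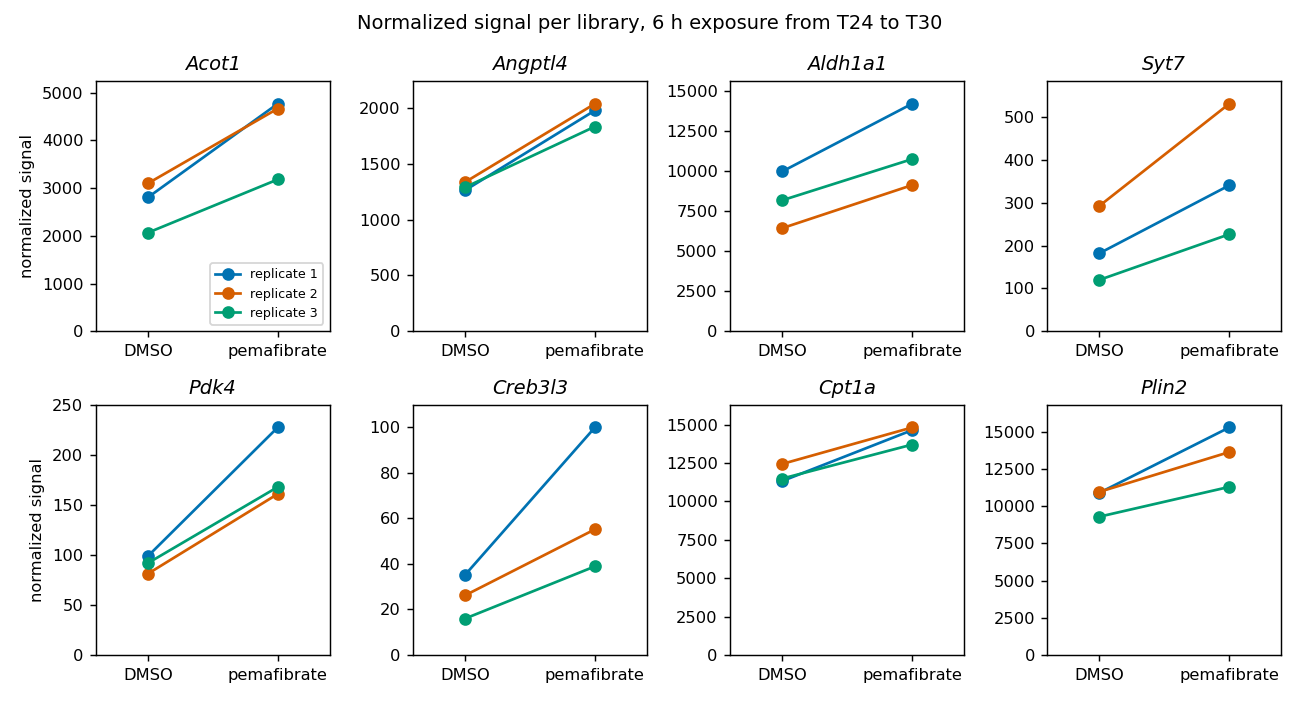
Normalized signal (vertical axes, starting at 0) of 8 genes in each of the 6 libraries, with lines joining the DMSO and pemafibrate libraries of the same replicate number. Every line slopes upward, and the groups do not overlap for Acot1, Angptl4, Pdk4, Creb3l3, Cpt1a and Plin2.

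Most of the core PPARα targets measured were higher with pemafibrate. Of 21 genes on the list, 16 passed the minimum. A positive log2 fold change was found in 15 of the 16, compared with 49.6% of all genes tested. The median of the 16 was 0.33 against −0.00082 over all genes. By limma 3 of the 16 were called, all higher, compared with 0.0378% of all genes tested. An unadjusted p under 0.05 by limma was reached by 10 in the higher direction and 0 in the lower, beside 3.84% and 3.67% of all genes. In 3 of 3 pairs, 12 were higher, beside 14.9% of all genes. In 6 of the 16 every treated library exceeded every control, compared with 2.08% of all genes tested. Among the 12 that were higher in every pair, the difference was largest in pair 1 for 10 (83.3%), compared with 42.0% of the 1976 such genes in the whole table.

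Creb3l3 and Pdk4 differed by the most among the core targets named here, and neither was called. Creb3l3, a liver transcription factor that induces lipid-handling and fasting genes, was at 35.1, 26.1 and 15.9 under DMSO and at 99.9, 55.1 and 38.9 under pemafibrate. Every treated library was above every control, by a log2 fold change of 1.255 ± 0.21 (SE, n = 3 pairs), which was not called (adjusted p = 0.376 by limma). Pdk4, the kinase that inhibits pyruvate dehydrogenase and so spares glucose, was at 98.9, 81.3 and 91.9 under DMSO and at 228, 161 and 168 under pemafibrate. This was a difference of 1.01 ± 0.13 (adjusted p = 0.161), again without overlap.

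Acot2, Plin2 and Cpt1a also missed the threshold with groups that were higher in every pair. Acot2 was at 325, 305 and 209.9 under DMSO and at 608, 464 and 316 under pemafibrate, a log2 fold change of 0.70 ± 0.09 (adjusted p = 0.181). Its groups overlapped slightly, since treated replicate 3 lay between the DMSO libraries. Plin2 went from 10905, 10970.0 and 9299 to 15300.4, 13645 and 11303, a log2 difference of 0.36 ± 0.05 (adjusted p = 0.161). Cpt1a was at 11331, 12446 and 11492 in the controls and at 14647, 14823 and 13708 with the drug, a log2 difference of 0.29 ± 0.04 (adjusted p = 0.161). In both the lowest treated library stood above the highest control. In the fit of all 18 libraries, which estimates the spread from 9 pairs, Acot2, Plin2 and Cpt1a in this interval were called (adjusted p = 0.00867, 0.00511 and 0.00315 by limma; over all alternatives the adjusted p reached 1.00 for each).

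Slc25a20, Acadm and Cd36 act in the transport and mitochondrial oxidation of fatty acids. Slc25a20, the carrier that exchanges acylcarnitine across the inner mitochondrial membrane, was at 886, 896 and 716 under DMSO and at 1071, 1045 and 781 under pemafibrate (log2 fold change 0.21, 95% interval 0.07 to 0.34). Acadm, the medium-chain acyl-CoA dehydrogenase, was at 2340.1, 2708 and 2189 and at 2832, 3058 and 2301 (0.17, 0.06 to 0.29). Both were higher in 3 of 3 pairs, overlapped between groups and were not called. Cd36, a fatty acid transporter of the plasma membrane, had little signal, with 41.7, 17.6 and 19.8 under DMSO and 47.3, 30.04 and 29.6 under pemafibrate, and its interval of −0.07 to 1.06 included 0.

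Several well-known targets stayed near 0. The log2 fold change was 0.05 for Acsl1 (long-chain acyl-CoA synthetase, interval −0.12 to 0.22), 0.04 for the peroxisomal enzyme Ehhadh (−0.24 to 0.33), 0.01 for the pantetheinase Vnn1 (−0.20 to 0.23) and −0.01 for the peroxisome division factor Pex11a (−0.25 to 0.23). Each of these intervals lay below the estimate for Acot1, and all 4 changed sign when single replicates were left out. The minimum was not reached by Cidec, Cyp4a10, Cyp4a14, Fabp1 or Fgf21, which were not tested. Fabp1, the liver fatty acid binding protein, was listed at 0, 1.0 and 0 under DMSO and at 2.0, 4.9 and 1.0 under pemafibrate. Fgf21 was at 0 in 4 of the 6 libraries.

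**Figure D3:**
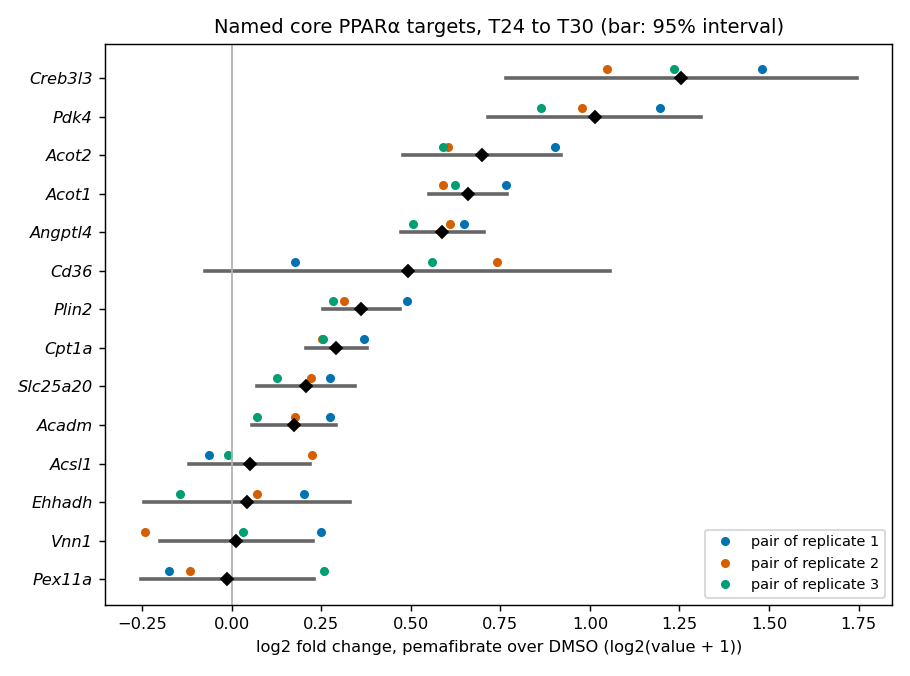
Log2 fold change (pemafibrate over DMSO, horizontal axis) of 14 core PPARα targets, as the estimate (diamond), its 95% interval (bar) and the 3 pairs (dots). The estimates run from 1.255 for Creb3l3 to −0.01 for Pex11a, and pair 1 is the highest dot in most of the upper genes.

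Among genes of mitochondrial fatty acid oxidation no member passed the test. Of 28 genes tested, 17 were higher and 11 lower, with a median log2 fold change of 0.07. At an unadjusted p under 0.05, 9 were higher and 1 was lower, beside 3.84% and 3.67% of all genes, and limma called 0. Those of the smallest p after Cpt1a were Etfb, a subunit of the electron transfer flavoprotein (0.26 ± 0.05), Acadsb, the dehydrogenase of short branched acyl-CoAs (−0.22 ± 0.05), and Acaa2, the mitochondrial thiolase (0.27 ± 0.06). Etfb was at 2143, 1903 and 1722 under DMSO and at 2364, 2367 and 2137 under pemafibrate. Acadsb was at 2167, 1974 and 2047 in controls and at 1844, 1773 and 1697 in treated libraries, with no overlap in the lower direction.

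Peroxisomal genes differed by little, with 29 of 42 higher, beside 49.6% of all genes tested, and a median of 0.04. At an unadjusted p under 0.05, 3 of the 42 were higher and 0 were lower, not far from the 3.84% and 3.67% of all genes, and limma called 0. They were led by Hsdl2, a hydroxysteroid dehydrogenase-like protein, at 674, 783 and 553 under DMSO and 948, 987 and 747 under pemafibrate (log2 fold change 0.42 ± 0.06, adjusted p = 0.210). Hsdl2 was higher in each pair, and its groups overlapped because of the low replicate 3. Acot4, a peroxisomal thioesterase, was at 57.4, 44.0 and 44.8 in the controls and at 96.9, 64.4 and 82.5 with the drug (0.72 ± 0.17), without overlap. Crot, which makes medium-chain acylcarnitines in peroxisomes, was higher in every pair by 0.15 ± 0.04.

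Among the 9 acyl-CoA thioesterases tested, the differences were confined to 3. Acot1, Acot2 and Acot4 lay between 0.66 and 0.72, and the median of the 9 was −0.0025. Lipid droplet genes showed 10 of 14 higher with a median of 0.02. Besides Plin2, only the hormone-sensitive lipase gene Lipe had an unadjusted p under 0.05, with 544, 576 and 531 under DMSO and 628, 624 and 689.7 under pemafibrate (0.23 ± 0.07), without overlap. Hilpda, which inhibits the first lipase of droplets, was higher in 2 of 3 pairs (0.15 ± 0.08).

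In the control of lipoprotein lipase, Angptl4 was the 1 gene of 10 that was called, compared with 0.0378% of all genes tested. Lpl, the lipase itself, was at 574, 422 and 613 under DMSO and at 504, 335 and 589.6 under pemafibrate. It was lower in each pair with overlapping groups (log2 fold change −0.19 ± 0.08, adjusted p = 0.662). The list had 8 of 10 genes higher, beside 49.6% of all genes tested, and a median of 0.05. Among 13 genes of fatty acid uptake and activation, 0 were called and 0 had an unadjusted p under 0.05, and the values for Slc27a1, Fabp5 and Acsl5 were 0.17, −0.09 and −0.06.

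The receptor genes themselves were not called. Ppara was at 179, 120.4 and 90.0 under DMSO and at 256, 114 and 134 under pemafibrate, higher in 2 of 3 pairs (log2 fold change 0.33, 95% interval −0.04 to 0.70). Ppard was higher in every pair without overlap, from 766, 759 and 744 to 876, 931 and 986 (0.30 ± 0.06, adjusted p = 0.564). Pparg was at 154, 125 and 147 in the controls and at 119, 129.9 and 140.3 with the drug (−0.13 ± 0.13). Of 23 receptors and coregulators tested, 15 were higher with a median of 0.02. Med1, a Mediator subunit that binds PPARs, was lower in each pair (−0.19 ± 0.05).

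The 19 retinoid genes tested, Aldh1a1 included, had 14 higher and a median of 0.05. Rdh10, which makes retinaldehyde from retinol, was lower in every pair by a small amount (−0.13 ± 0.04). Ketone genes had 6 of 10 higher, beside 49.6% of all genes tested, with a median of 0.06. By limma 1 of the 10 was called, compared with 0.0378% of all genes tested. Slc16a6, a transporter that exports ketone bodies, was at 97.6, 91.7 and 95.8 under DMSO and at 122, 128 and 131 under pemafibrate (0.42 ± 0.13), without overlap. Fatty acid and triglyceride synthesis had 7 of 21 higher and a median of −0.02, with small positive values for Mlxipl (0.40 ± 0.11), the carbohydrate-responsive factor, Fasn (0.12 ± 0.04), fatty acid synthase, and Dgat1 (0.17 ± 0.06), which makes triglycerides. Rdh10, Slc16a6, Mlxipl, Fasn and Dgat1 were not called.

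Several genes outside the lists had small unadjusted p-values without a call. Eif2b2, a subunit of the exchange factor for translation initiation factor eIF2, was at 1162, 1222 and 1455 under DMSO and at 1532, 1554 and 1783 under pemafibrate (log2 fold change 0.35 ± 0.05, adjusted p = 0.181), and its groups were separate. Dnmt3a, a de novo DNA methyltransferase, was higher in each pair with overlapping groups (0.32 ± 0.06), and the uncharacterized E030030I06Rik was higher without overlap (0.71 ± 0.11). Rps13-ps1, a pseudogene whose reads may come from its parent, was at 42.2, 158 and 140.03 under DMSO and at 163, 457 and 229 under pemafibrate (1.39 ± 0.22).

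No gene was called lower, and those with the smallest unadjusted p differed mostly by modest amounts. Dcbld2, a membrane receptor-like protein, was at 3144, 1900.1 and 2873 under DMSO and at 2567, 1579.8 and 2233 under pemafibrate (−0.31 ± 0.04, adjusted p = 0.181). Ptpn12, a tyrosine phosphatase, was at 5214, 4838 and 4461 and at 4458, 4237 and 3875 (−0.21 ± 0.03), and Rps6ka2, a ribosomal S6 kinase, at 556, 679.8 and 669 and at 448, 499 and 511 (−0.38 ± 0.07). The latter 2 were separate between groups, while Dcbld2 overlapped because of its low replicate 2. Cox10, which farnesylates haem for cytochrome oxidase, was lower without overlap (−0.35 ± 0.06). Espl1, which cleaves cohesin at anaphase (−0.26 ± 0.04), Ssh2, a cofilin phosphatase (−0.40 ± 0.07), and the predicted gene Gm9531 (−0.51 ± 0.10) were also lower in every pair.

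Cyp1a1, the xenobiotic oxidase induced through the aryl hydrocarbon receptor, was lower by the most among the better-known genes. It was at 58.4, 119.996 and 173 under DMSO and at 21.9, 57.7 and 108 under pemafibrate. The value was lower in each pair, but replicates differed as much as treatments did, and the log2 fold change of −1.03 ± 0.18 was not called (adjusted p = 0.459). The predicted genes Gm20431 and Gm49378 had low signal. Gm20431 was at 11.1, 46.6 and 15.1 under DMSO and listed at 0 in all 3 treated libraries, and Gm49378 was at 79.7, 10.9 and 13.1 under DMSO and at 10.9, 0 and 0 under pemafibrate.

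Genes of DNA replication were mostly lower, by small amounts. Of 36 tested, 31 had a negative log2 fold change, compared with 6665 of all 13231 genes tested. The median was −0.08 against −0.00082 over all genes. At an unadjusted p under 0.05, 12 were lower and 0 were higher, compared with 3.67% of all genes in the lower direction. In 3 of 3 pairs, 19 were lower, beside 15.6% of all genes. Limma called 0 of them. Ung, the uracil-DNA glycosylase, differed by the most among them, with 708, 460.0 and 591 under DMSO and 579, 342 and 463 under pemafibrate (−0.36 ± 0.07, adjusted p = 0.520). Tyms, which makes thymidylate, was at 2063, 1931 and 2650.4 and at 1862, 1670.4 and 2321 (−0.18 ± 0.04). Cdc6, which licenses origins, and Pcna, the polymerase clamp, were lower by less than their spread between replicates but in each pair (−0.21 ± 0.05 and −0.13 ± 0.04).

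The cell cycle list showed 28 of 32 genes lower, beside 6665 of all 13231, with a median of −0.06, and limma called 0. At an unadjusted p under 0.05, 2 of the 32 were lower and 1 was higher, not far from the 3.67% and 3.84% of all genes. In 3 of 3 pairs, 14 of the 32 were lower and 1 was higher, beside 15.6% and 14.9% of all genes. The checkpoint gene Mad2l1 (−0.15 ± 0.06) and the cyclin gene Ccna2 (−0.11 ± 0.04) were lower in every pair, and the G1 cyclin gene Ccnd3 was higher, at 1952, 2009 and 2017 under DMSO and 2563, 2132 and 2151 under pemafibrate (0.19 ± 0.07). With any 1 replicate left out, between 29 and 32 of the 36 replication genes and between 23 and 27 of the 32 cell cycle genes were lower. The part of culture growth or density in these values was not tested.

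Core clock genes were not called. Of 24 genes, 22 were tested, with 15 lower and 7 higher, and their log2 fold changes lay between −0.10 and 0.22, with a median of −0.02. Bmal1 (listed as Arntl) was at 578, 594 and 476 under DMSO and at 516, 567 and 524 under pemafibrate, and Per2 was at 949, 822 and 843 and at 1013, 837 and 762. In neither gene did the pairs go one way. The single clock gene with an unadjusted p under 0.05 was Rorb, an orphan receptor, at 293, 303 and 288 in controls and at 326, 347 and 358 with the drug (0.22 ± 0.08), without overlap.

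Mitochondrially encoded transcripts, which are copied from the mitochondrial genome, were split, with 6 of 13 higher and a median of −0.02. The exception was mt-Nd3, a subunit of complex I, at 10312, 11669 and 7899 under DMSO and 7076, 9496 and 6900 under pemafibrate. It was lower in each pair (−0.35 ± 0.06, adjusted p = 0.481), and mt-Atp6 was lower by a smaller amount (−0.09 ± 0.03). The groups of both overlapped.

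**Figure D4:**
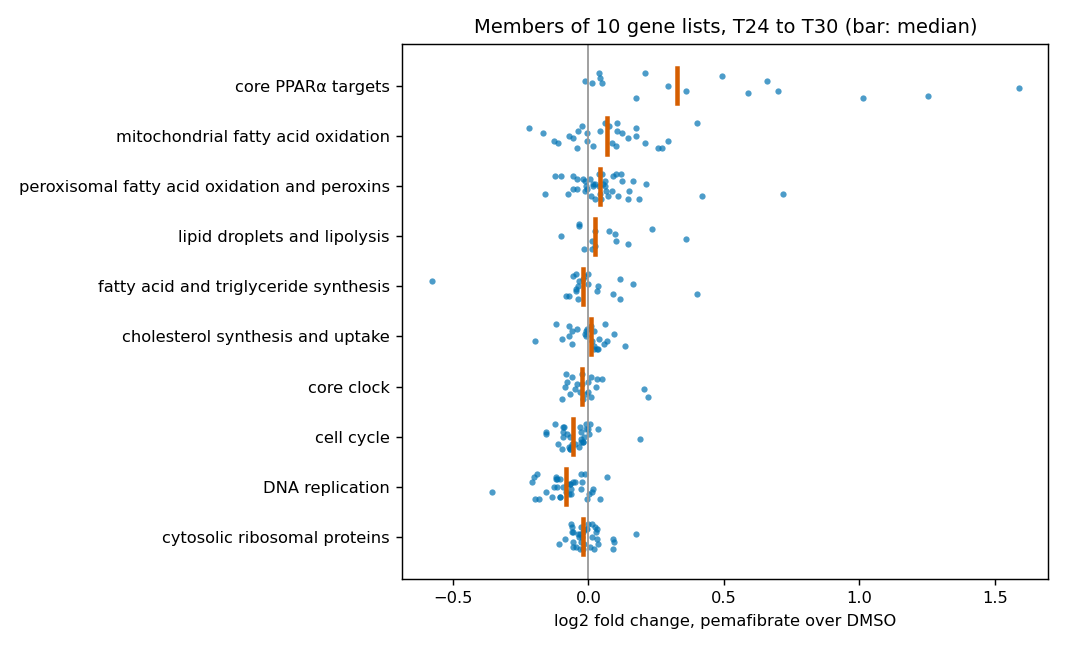
Log2 fold change (pemafibrate over DMSO, horizontal axis) of the tested members of 10 gene lists, 1 point per gene, with the median of each list as a bar. The core PPARα targets have a median of 0.33, the other 9 medians lie between −0.08 and 0.07, and most points for DNA replication and the cell cycle are left of 0.

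Exposures were compared by differences between treatment effects. The 24 h exposure differed from T24 to T30 in length, start and end at once, so length and time cannot be told apart there. Each interval had its own controls. Of 13045 genes with a mean of at least 10 in every interval, limma called 0 as different between T24 to T30 and T14 to T20, and 0 between T24 to T30 and the 24 h exposure. At an unadjusted p under 0.05 there were 1204 (9.23%) and 1039 (7.96%). The smallest adjusted p was 0.127 for Rhbdd2 against the day-like interval and 0.116 for Zfc3h1 against 24 h. Leaving out replicate 2 gave 1 call against the day-like interval, Col7a1, and leaving out replicate 1 gave 1 call against 24 h, the pseudogene Rpl14-ps1.

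For core targets the night-like effect was below the day-like effect in 9 of 16 genes and below the 24 h effect in 10 of 16. Acot1 had log2 fold changes of 0.66 at night, 0.71 by day and 0.83 after 24 h. Angptl4 had 0.59, 0.48 and 0.65. The night-minus-day difference was −0.05 for Acot1 (95% interval −0.22 to 0.13), 0.11 for Angptl4 (−0.05 to 0.26), 0.04 for Cpt1a (−0.06 to 0.13), −0.14 for Acot2 (−0.41 to 0.12) and 0.15 for Creb3l3 (−0.44 to 0.74). The interval for Cpt1a was the narrowest of these and that for Creb3l3 the widest, and all 5 included 0.

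Aldh1a1, Syt7 and Acadm had a difference from day or 24 h whose interval ends were of the same sign. None of these differences passed the test. Aldh1a1 had log2 fold changes of 0.47, 0.58 and 0.75 in the night-like, day-like and 24 h exposures. Its difference from 24 h was −0.28 (interval −0.41 to −0.15, adjusted p = 0.564 by limma) and from day −0.11 (−0.24 to 0.01). Acot1, Acot2 and Cpt1a were also lower than after 24 h, by −0.17, −0.25 and −0.08, with upper interval ends of 0.002, 0.01 and 0.02. Syt7 had 0.89, 0.29 and −0.14. Its difference from 24 h was 1.03 (0.36 to 1.69, adjusted p = 0.594) and from day 0.60 (−0.07 to 1.26). In the 24 h libraries Syt7 was at 290.45, 292 and 179.7 under DMSO and at 431, 215 and 124 under pemafibrate, so its replicates there did not move one way. Acadm was higher at night and lower by day, with 0.17, −0.16 and −0.04, a night-minus-day difference of 0.33 (0.17 to 0.50, adjusted p = 0.329).

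The genes of the smallest p between T24 to T30 and T14 to T20 had effects of opposite sign. Being picked for the smallest p of the difference favours opposite signs, so the signs and intervals are no separate support for a difference. Rhbdd2, a rhomboid family protein, was higher with the drug in T24 to T30 (0.28) and lower in T14 to T20 (−0.20), a difference of 0.48 (0.34 to 0.61). Sardh, the mitochondrial sarcosine dehydrogenase, differed by 0.45 from day and by 0.38 from 24 h, Shkbp1 by 0.35 from day and Eif5b, a translation initiation factor, by −0.32 from day. mt-Nd3 was lower at night and higher by day (−0.35 and 0.24), a difference of −0.58 (−0.80 to −0.37, adjusted p = 0.218). Against 24 h, Zfc3h1 differed by 0.34, the transporter gene Abca5 by −0.51, the kinetochore gene Knl1 by −0.37 and Zfp706 by −0.30. In T24 to T30 the log2 fold changes of Zfc3h1 and Abca5 were only 0.05 and −0.005, compared with −0.28 and 0.51 after 24 h. None of these passed the adjusted threshold.

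Lists differed between intervals in how many members were lower. DNA replication had 31, 33 and 19 of 36 lower in the night-like, day-like and 24 h exposures, with medians of −0.08, −0.05 and −0.0024. Cell cycle genes had 28, 17 and 11 of 32 lower. Core PPARα targets had 15, 14 and 13 of 16 higher. Mitochondrial fatty acid oxidation had 17, 23 and 24 of 28 higher, with medians of 0.07, 0.05 and 0.05. At an unadjusted p under 0.05 by limma, 9, 8 and 7 of these 28 were higher and 1, 1 and 0 were lower. Of all 13045 genes tested, 6482, 6345 and 6316 were higher and 6563, 6700 and 6729 were lower. The differences between these counts were not tested.

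**Figure D5:**
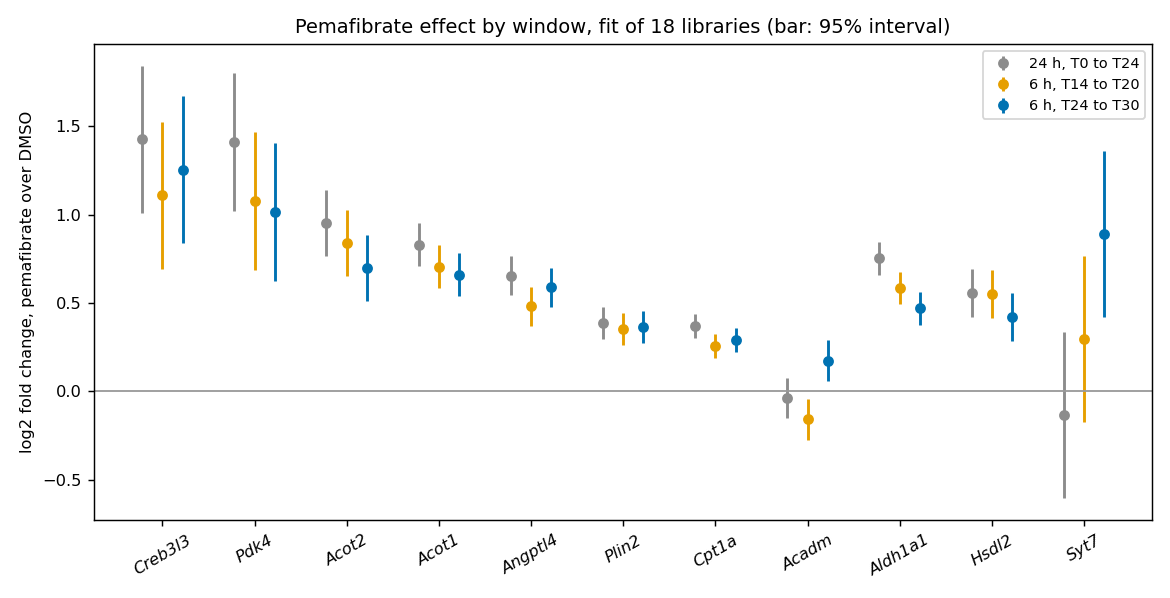
Log2 fold change (pemafibrate over DMSO, vertical axis) of 11 genes in the 3 exposures, from the fit of 18 libraries, as estimates with 95% intervals. Intervals overlap between exposures for the core targets Creb3l3 to Cpt1a, and the points for Syt7 run from −0.14 after 24 h to 0.89 in T24 to T30.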

How the data were processed

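Poly(A) RNA of AML12 cells was sequenced by a strand-marking protocol, per the labels' protocols. The authors deposited normalized signal values per gene, scaled within each interval; the sources used here do not give the normalization, aligner or genome build. Below a value of 9, 72.7% to 73.6% of values were whole (tolerance 0.05), so reads were not recovered and no count model was used. Identifiers were matched to symbols for 35181 of 35551 genes. Values were analysed as log2(value + 1), so that fold changes of low genes are understated. Genes averaging 10 or more across the 6 libraries were tested with limma 3.58.1 (R 4.3.3, two-sided, variance trend, Benjamini-Hochberg over all genes tested), with treatment and replicate number as a block. The pairing by replicate number was fixed by rule before the fit. Deviations from the group means correlated in every same-numbered pair (r = 0.367, 0.396 and 0.350), and other pairings gave -0.211 to -0.159. Deviations within a group cancel out, so positive values in the same-numbered pairs go with negative ones elsewhere. These are also the values tested, so the correlations are no separate support for the pairing. The paired fit leaves 2 residual degrees of freedom. Differences between intervals came from 1 fit of all 18 libraries with 9 pairs as blocks. The fits were also run on simulated data whose spread followed the signal level alone. That run cannot show how the fits behave when genes of like signal differ in spread.

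Most genes named for their treatment effect came from a few sets. These were the called genes, 12 higher and 12 lower of the smallest p after them, and the core PPARα targets. The others were the 4 (or fewer) lowest p-values in every other list, the PPAR receptors and 5 genes per difference between intervals. Not every member of these sets is named. The members, gene lists and tests were chosen with earlier results of these data known. Some genes that the counts cover are not reported here by name. Alternatives were other pseudocounts (0.5 and 10), minima (0 and 50), variance settings, rescalings, the unpaired fit and leaving out each replicate.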

Additional observations from a re-analysis of the deposited data

How the results depend on the processing

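The count of 5 called genes was 5 again with pseudocounts of 0.5 and 10, a minimum mean of 50, a robust variance prior and both rescalings. It was 0 without the replicate block (the paired samples then being treated as independent), 0 with no filter on low values (1169 of 21475 genes at an unadjusted p under 0.05), 0 without the variance trend (830 genes), 8 in the fit of all 18 libraries and between 1 and 7 when 1 replicate was left out; the cause was not tested. The 8 included Acot1, Aldh1a1, Angptl4, Acot2, Plin2, Cpt1a and Hsdl2, and 4 were among the 5. Both differences between intervals had 0 calls under every setting, except that leaving out 1 replicate gave between 0 and 1 for each. Of 891 values for 69 genes under these alternatives, 860 kept direction and call, 20 lost the call, 6 gained one and 5 changed sign. Those 5 came from leaving out a replicate, over which Ehhadh ranged from -0.037 to 0.14, Pex11a from -0.15 to 0.070, Vnn1 from -0.11 to 0.14 and Acsl1 from -0.037 to 0.11. The difference in the Creb3l3 effect from 24 h ranged from -0.55 to 0.036. Read depth is unknown, and with 2 residual degrees of freedom the calls rest on a variance estimate shared between genes.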

Other observations

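Lists further from lipid use showed few differences in T24 to T30. Cholesterol synthesis and uptake had 13 of 25 genes higher and a median log2 fold change of 0.01, with Hmgcs1, the cytosolic synthase of the sterol pathway, higher in 3 of 3 pairs (0.13 ± 0.04, not called by limma). Immediate early genes had 17 of 27 higher and a median of 0.01, and Ier3, an early response gene, was lower in every pair (-0.19 ± 0.05). Unfolded protein and integrated stress response genes had 15 of 25 lower with a median of -0.0045. Cytosolic ribosomal protein genes had 22 of 35 lower with a median of -0.02.

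Smaller lists gave single genes of note. Mt2, a metallothionein, was at 4252, 10648 and 7484 under DMSO and at 4147, 9529 and 6295 under pemafibrate, lower in each pair (-0.15 ± 0.05), with replicates differing by more than treatments. Nqo1, a target of NRF2, was at 10.1, 14.9 and 16.1 in controls and at 15.9, 26.8 and 26.0 with the drug (0.69 ± 0.28), and its groups overlapped. Fgfr4, a receptor for the fibroblast growth factor that represses bile acid synthesis, was higher in 3 of 3 pairs (0.19 ± 0.05), and Ucp2, a mitochondrial carrier, likewise (0.22 ± 0.07). Mpst, which makes hydrogen sulfide, was lower in every pair (-0.16 ± 0.06). None of these genes was called.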
